A study of Homo sapiens with 6 samples.

Results

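Collagens, laminins, fibronectin and the proteins that bind or crosslink them make up the extracellular matrix, the scaffold that cells secrete and adhere to. In this group of 54 listed genes the products of 52 could be read, each by 1 row of the value table. They were chosen by gene symbol, as the rows whose only annotated symbol is that of a listed gene, out of 21214 rows tested and 18417 genes with a row of their own. LAMA3 and SDC4 were not analysed here: no row used here carries LAMA3, and the row with SDC4 also carries another gene's symbol. The genes were described in 12 classes: fibrillar collagens, basement membrane and network collagens, collagens VI and VII, collagens XII, XIII and XVI, fibronectin, elastic fibre proteins, laminins, nidogens with basement membrane proteoglycans, cell-associated proteoglycans, secreted matrix proteoglycans, matricellular proteins and lysyl oxidases.

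The cells were MDA-MB-231, an established human triple-negative breast cancer line. They carried 1 of 2 short hairpin RNAs (shRNAs) against TIP-1, numbered 162 and 159, or a control shRNA, and each of the 3 groups held 2 independent clones with 1 Affymetrix Human Gene 1.0 ST array each. Cells of all groups came from serum-containing RPMI, were detached with trypsin, seeded again and left overnight before total RNA was taken, so the RNA comes from cells that had recently been detached from their matrix. Each group rests on its own clones, so what a hairpin does and how a pair of clones happens to differ cannot be told apart. TAX1BP3 encodes TIP-1, which consists largely of 1 PDZ domain, a fold that binds the tails of other proteins.

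Matrix proteins are secreted and assembled outside the cell. Fibrillar collagens form cables, type IV collagen and laminins form the sheets of basement membranes, and fibronectin and the fibrillins form fibrils to which other proteins are added. A laminin is a trimer of an alpha, a beta and a gamma chain. Syndecans and glypicans carry heparan sulfate chains at the cell surface, and lysyl oxidases crosslink collagen and elastin. In tumours much of the interstitial matrix comes from fibroblasts, while carcinoma cells such as these make a set of their own.

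Values are log2 signals as the authors deposited them, so a difference of 1 is a factor of 2, and each difference below comes from 1 limma fit of the 3 groups with all 6 arrays. The threshold for passing was 0.05 on the p-value after Benjamini-Hochberg adjustment over all tested rows. The row of the targeted gene carries a second symbol, the readthrough P2RX5-TAX1BP3, and stood at 9.85 and 10.01 in the shRNA 162 clones, 10.40 and 10.40 in the shRNA 159 clones and 11.65 and 11.56 in the control clones. TAX1BP3 signal was at 31.3% of control with shRNA 162 (limma adjusted p = 4.4e-05) and at 43.4% with shRNA 159 (limma adjusted p = 0.00034). Array medians over the tested rows lay between 7.86 and 7.91, and the median SD between clones of a group over the matrix genes was 0.06. Of the markers of this line, VIM, CD44, AXL, MSN and CAV1 had mean signals between 12.58 and 13.32. Their summed linear signal was 38760 to 38920 with shRNA 162, 39040 to 40620 with shRNA 159 and 40690 to 40770 in control. Of 7 luminal and epithelial markers 3, ESR1, PGR and CDH1, lay below the lower quartile of every array. Mean signals in this list reached 12.11, and its sums were 4514 to 4606, 5385 to 5844 and 5568 to 6230 in the same order. In the same list of luminal and epithelial markers KRT8 fell by 0.44 with shRNA 162 (limma adjusted p = 0.027) and EPCAM rose by 0.94 with shRNA 159 (limma adjusted p = 0.00086); their part in the results below was not tested. Matrix genes are typical fibroblast products, so fibroblast markers were read beside them. The summed linear signal of 7 such markers was 865.5 to 912.9 with shRNA 162, 852.8 to 928.7 with shRNA 159 and 892.9 to 905.1 in control, PDGFRA and FAP lay below the lower quartile of every array, and limma called 0 of the 7 with either hairpin against control (0 and 2 at an unadjusted p under 0.05). For 6 endothelial markers the sums were 766.9 to 783.3, 725.6 to 815.6 and 756.6 to 805.7, and for 5 leukocyte markers 3260 to 3605, 3506 to 3604 and 3573 to 3979, with 0 called in either list (0 at an unadjusted p under 0.05 in both). Of 6 listed leukocyte markers 5 were measured, and 3 of these lay below the lower quartile of every array. Mean signals of the 5 ran from 5.07 to 11.66, so the leukocyte sum rests largely on the brightest. In RNA from a whole culture, fewer cells that make a transcript and less transcript per cell cannot be told apart.

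All changes of matrix genes against control that passed were downward. With shRNA 162, 12 of the 52 matrix genes fell (23.1%) and 0 rose, where 9.52% of all tested rows passed, 3.64% lower and 5.88% higher. With shRNA 159, 4 of 52 fell (7.69%) and 0 rose, where 2.53% of all rows passed, 0.839% lower and 1.69% higher. At an unadjusted p under 0.05, 2 genes were higher with shRNA 162 and 3 with shRNA 159. The median difference over the 52 genes was -0.05 with shRNA 162 and -0.01 with shRNA 159, against 0.02 and -0.01 over all tested rows. By the median the list thus lay close to the rest of the array, and the falls that passed sat in a part of the genes. Over both hairpins weighted equally, TIP-1 shRNA minus control, 6 fell and 0 rose, where 4.62% of all rows passed, 1.61% lower and 3.01% higher (2 were higher at an unadjusted p under 0.05). The 6 were COL8A1, COL12A1, FBN1, LAMA4, GPC6 and SRGN. With shRNA 159 alone COL8A1, LAMA4 and SRGN did not pass, with differences of -0.44, -0.11 and -0.15 (limma adjusted p = 0.12, 0.64 and 0.42). All 37 genes that passed in no comparison had differences from control between -0.26 and 0.29 with either hairpin.

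**Figure D1:**
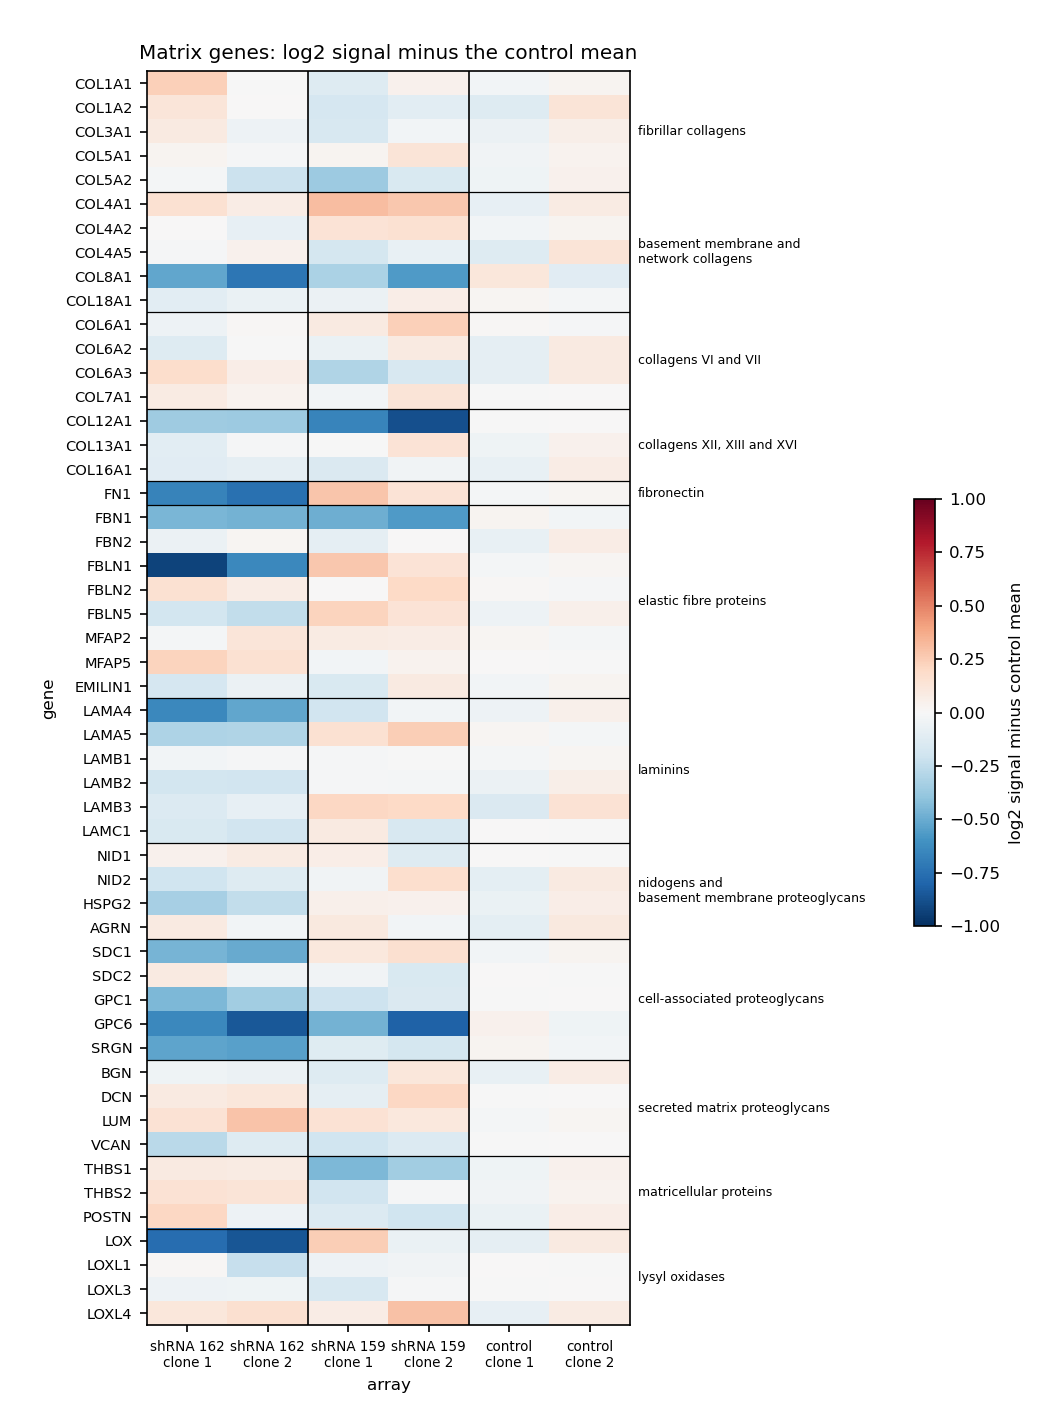
Log2 signal of the 52 matrix genes (rows, by class) on each of the 6 arrays (columns), as the difference from the mean of the control clones (colour scale in log2 units). The columns of shRNA 162 hold most of the low values, and COL8A1, COL12A1, FBN1 and GPC6 are low in all 4 TIP-1 shRNA columns.

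Among the collagens most chains did not pass. The 5 fibrillar chains COL1A1, COL1A2, COL3A1, COL5A1 and COL5A2 differed from control by -0.12 to 0.12 with shRNA 162 and by -0.26 to 0.08 with shRNA 159, and limma called 0 of them (0 and 1 at an unadjusted p under 0.05). COL5A1, a chain of the collagen V that starts fibrils, read 8.61 and 8.57 with shRNA 162, 8.61 and 8.71 with shRNA 159 and 8.55 and 8.61 in control, and no group stood apart. COL4A1 and COL4A2, the chains of the common type IV collagen of basement membranes, differed by 0.11 and -0.04 with shRNA 162 and by 0.29 and 0.15 with shRNA 159, and neither passed. The 3 chains of collagen VI, a microfibril around cells, and COL7A1, the anchoring fibril of skin, differed by -0.07 to 0.12 with shRNA 162 and by -0.23 to 0.16 with shRNA 159, with 0 called (0 and 1 at an unadjusted p under 0.05).

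COL12A1 and COL8A1 were the collagens that fell. In their classes COL13A1, COL16A1, COL4A5 and COL18A1 passed in no comparison. COL12A1 encodes a collagen that sits on the surface of fibrils and links them to other matrix. Its signal was 8.44 and 8.43 with shRNA 162, 8.13 and 7.91 with shRNA 159 and 8.79 and 8.80 in control. Signals of both control clones exceeded those of all 4 TIP-1 shRNA clones, of which the shRNA 159 clones were lowest. With shRNA 159, COL12A1 fell by 0.77 on the log2 scale (SE 0.09, 1.70-fold lower, limma adjusted p = 0.004) and by 0.36 with shRNA 162 (SE 0.09, limma adjusted p = 0.042). COL8A1, a short-chain network collagen, read 6.21 and 6.01 with shRNA 162, 6.41 and 6.16 with shRNA 159 and 6.84 and 6.62 in control. All 4 TIP-1 shRNA signals were under both controls, and the row was dim, below the lower quartile on 5 of 6 arrays. COL8A1 fell by 0.62 with shRNA 162 (SE 0.12, limma adjusted p = 0.017), and its difference of -0.44 with shRNA 159 did not pass (limma adjusted p = 0.12).

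In the fibrillin and fibulin class FBN1 fell with both hairpins and FBLN1 with shRNA 162. FBN1 encodes fibrillin-1, the backbone of the microfibrils that carry elastin and latent TGF-beta. It read 7.50 and 7.49 with shRNA 162, 7.47 and 7.39 with shRNA 159 and 7.98 and 7.93 in control, so that the 4 shRNA clones were close to each other and below both controls. FBN1 fell by 0.46 with shRNA 162 (SE 0.08, limma adjusted p = 0.0083) and by 0.53 with shRNA 159 (SE 0.08, limma adjusted p = 0.0092). FBLN1, fibulin-1, binds fibronectin and laminin. It read 7.08 and 7.36 with shRNA 162, 8.28 and 8.14 with shRNA 159 and 7.98 and 8.03 in control. Only the shRNA 162 clones lay below the control clones. FBLN1 fell by 0.78 with shRNA 162 (SE 0.11, 1.72-fold lower, limma adjusted p = 0.004), and its difference of 0.20 with shRNA 159 did not pass (limma adjusted p = 0.44). The other 6 members, FBN2, FBLN2, FBLN5, MFAP2, MFAP5 and EMILIN1, passed with neither hairpin against control.

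Fibronectin and LOX fell with shRNA 162. FN1, the fibronectin gene, read 10.89 and 10.82 with shRNA 162, 11.85 and 11.70 with shRNA 159 and 11.55 and 11.58 in control. The shRNA 162 clones were low and the shRNA 159 clones slightly above control. FN1 fell by 0.71 with shRNA 162 (SE 0.08, 1.64-fold lower, limma adjusted p = 0.0022), and with shRNA 159 it differed by 0.21 without passing (limma adjusted p = 0.31). LOX encodes lysyl oxidase, which oxidises lysines of collagen and elastin so that they crosslink. It read 7.51 and 7.41 with shRNA 162, 8.52 and 8.21 with shRNA 159 and 8.18 and 8.36 in control, where the shRNA 159 and control clones overlapped. LOX fell by 0.81 with shRNA 162 (SE 0.12, 1.75-fold lower, limma adjusted p = 0.0052) and differed by 0.09 with shRNA 159 (limma adjusted p = 0.78). Its relatives LOXL1, LOXL3 and LOXL4 had differences between -0.11 and 0.19 with either hairpin and did not pass.

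The 2 laminins that passed against control were alpha chains. With shRNA 162 all 6 measured laminins lay below 0, 3 of them at an unadjusted p under 0.05. Alpha chains were not tested against the other chains. LAMA4, an alpha chain of vascular and muscle basement membranes, read 6.35 and 6.47 with shRNA 162, 6.80 and 6.96 with shRNA 159 and 6.94 and 7.04 in control. LAMA4 fell by 0.58 with shRNA 162 (SE 0.09, limma adjusted p = 0.0071). Its shRNA 162 signals lay below the lower quartile of their arrays. LAMA5, an alpha chain of most epithelial basement membranes, read 8.40 and 8.40 with shRNA 162, 8.86 and 8.95 with shRNA 159 and 8.73 and 8.69 in control. It fell by 0.31 with shRNA 162 (SE 0.08, limma adjusted p = 0.041). The chains with which alpha chains assemble did not pass: with shRNA 162, LAMB1 differed by -0.02, LAMB2 by -0.19, LAMB3 by -0.11 and LAMC1 by -0.17, and with shRNA 159 the 4 lay between -0.04 and 0.20. LAMB1 read 10.13 and 10.15 with shRNA 162, 10.15 and 10.16 with shRNA 159 and 10.14 and 10.18 in control. LAMC1 read 10.11 and 10.07 with shRNA 162, 10.35 and 10.10 with shRNA 159 and 10.26 and 10.26 in control, and its shRNA 159 clones lay on either side of control. NID1, NID2, HSPG2 and AGRN, which bind laminin or other parts of basement membranes, also passed with neither hairpin against control (1 and 0 at an unadjusted p under 0.05).

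Of the cell-associated proteoglycans 4 of 5 fell with shRNA 162 and 1 of 5 with shRNA 159. Over all tested rows 3.64% and 0.839% passed lower. GPC6, a glypican held to the membrane by a lipid anchor, read 8.67 and 8.46 with shRNA 162, 8.83 and 8.50 with shRNA 159 and 9.35 and 9.26 in control. All 4 TIP-1 shRNA clones were below both controls. GPC6 fell by 0.75 with shRNA 162 (SE 0.12, 1.68-fold lower, limma adjusted p = 0.0084) and by 0.64 with shRNA 159 (SE 0.12, 1.56-fold lower, limma adjusted p = 0.033). GPC1, another glypican, read 8.67 and 8.77 with shRNA 162, 8.91 and 8.97 with shRNA 159 and 9.11 and 9.12 in control, and fell by 0.40 with shRNA 162 (SE 0.08, limma adjusted p = 0.017). With shRNA 159 its difference was -0.17 and did not pass. SDC1, the transmembrane heparan sulfate proteoglycan syndecan-1, read 8.81 and 8.77 with shRNA 162, 9.38 and 9.44 with shRNA 159 and 9.25 and 9.30 in control, and fell by 0.49 with shRNA 162 (SE 0.07, limma adjusted p = 0.0067). SRGN encodes serglycin, a proteoglycan of secretory granules. It read 12.39 and 12.37 with shRNA 162, 12.79 and 12.74 with shRNA 159 and 12.94 and 12.88 in control, and fell by 0.53 with shRNA 162 (SE 0.07, 1.45-fold lower, limma adjusted p = 0.0046). SDC2 differed by 0.03 with shRNA 162 and -0.09 with shRNA 159.

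The secreted proteoglycans BGN, DCN, LUM and VCAN did not pass in any comparison (1 higher and 1 lower at an unadjusted p under 0.05 with shRNA 162). DCN, LUM and VCAN, like FBN2, MFAP5, NID1, NID2 and POSTN, lay below the lower quartile on all 6 arrays, so in 8 of the 52 rows a fall has little room to show. Of the matricellular proteins, which signal to cells more than they build, THBS1 fell with shRNA 159. THBS1, thrombospondin-1, read 13.25 and 13.24 with shRNA 162, 12.70 and 12.81 with shRNA 159 and 13.11 and 13.20 in control. It fell by 0.40 with shRNA 159 (SE 0.08, 1.32-fold lower, limma adjusted p = 0.04), against a difference of 0.09 with shRNA 162 (SE 0.08, limma adjusted p = 0.55). The call for THBS1 was lost when any 1 of the 6 arrays was left out, with adjusted p values up to 0.29 over all alternatives. THBS2 and POSTN did not pass.

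**Figure D2:**
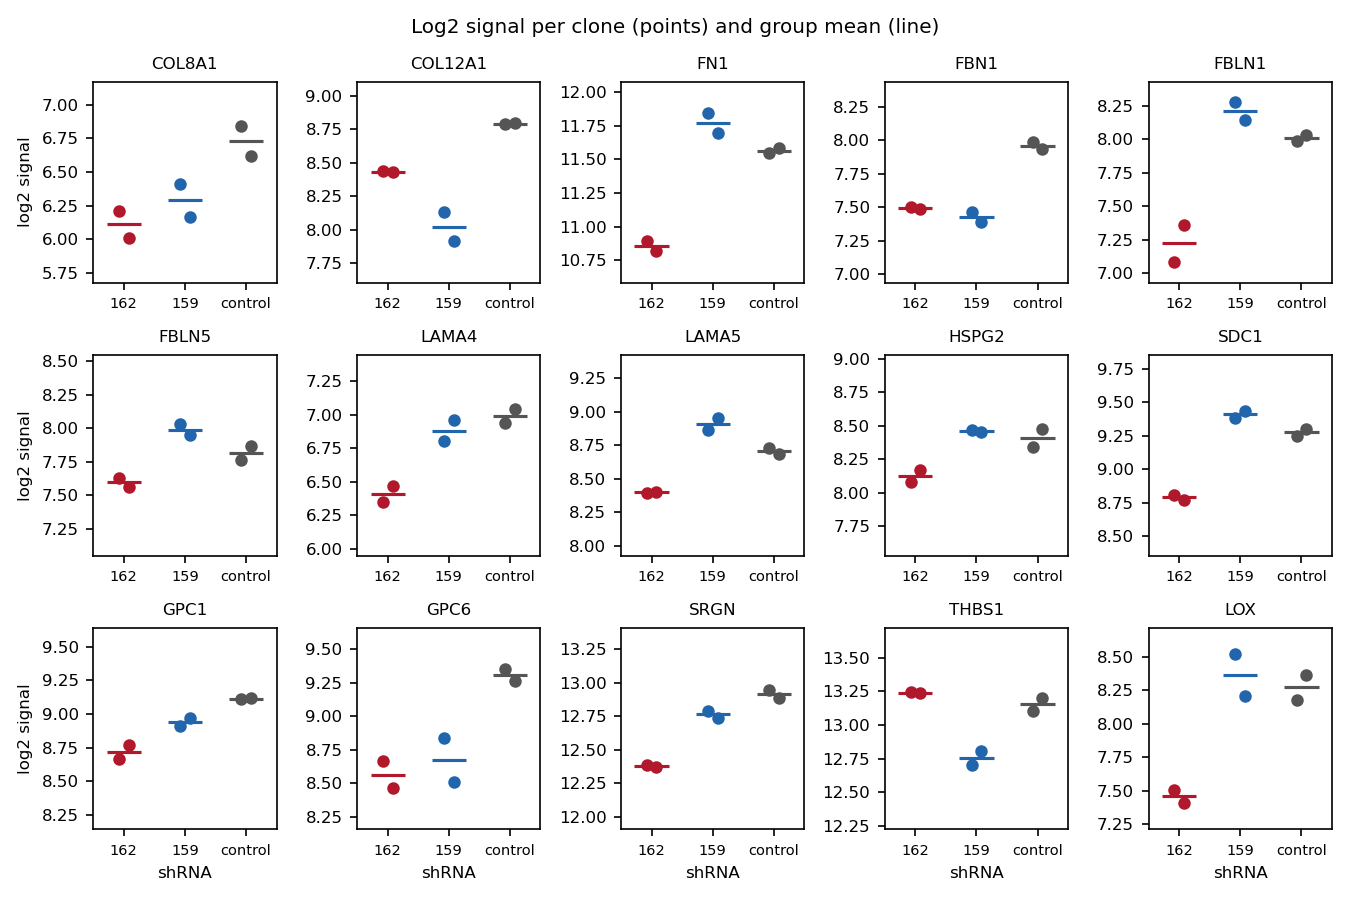
Log2 signal in each clone (points) and group mean (lines) for the 15 matrix genes that passed in at least 1 comparison; each panel spans the same range of 1.5 log2 units. COL8A1, COL12A1, FBN1, GPC1, GPC6 and SRGN are lower in all 4 TIP-1 shRNA clones than in both control clones, while FN1, FBLN1, SDC1 and LOX are low in the shRNA 162 clones alone.

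COL12A1, FBN1 and GPC6 were the 3 of 52 genes that fell with each hairpin alone, where 0.339% of all rows did; the comparisons share the control clones. In 8 of 52 matrix genes (15.4%) all 4 TIP-1 shRNA clones lay below both control clones, against 8.9% of all rows, and in 1 of 52, the dim LUM row, all 4 lay above them, against 13.0%. The 8 were COL8A1, COL12A1, FBN1, GPC1, GPC6, SRGN, VCAN and LOXL3. These calls rest on the pair of control clones, and so do those of other rows. With either control clone left out, fewer of all tested rows passed as well. Without control clone 1 or control clone 2, limma called 0 of 52 for TIP-1 shRNA minus control (10 and 8 at an unadjusted p under 0.05), and without shRNA 162 clone 2 it called 3. With shRNA 159 the count was 1 without either control clone and 2 without shRNA 159 clone 2. When the 4 TIP-1 shRNA arrays were taken as 1 group 1 gene passed, and 0 passed once the hairpin was entered as a random block (limma, 6 at an unadjusted p under 0.05).

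The promoters of these 3 genes are shown because their transcripts fell with both hairpins. Each runs from 250 bases before to 50 bases after the RefSeq start in GRCh38.p14, 5′ to 3′ on the gene's strand. Capitals mark the motifs searched on both strands: TGANTCA of AP-1, GGAATG of TEAD factors, GGGCGG of SP1 and TATAAA, the TATA box. Overlapping matches were counted separately.
COL12A1, chr6:75206004-75206303, minus strand: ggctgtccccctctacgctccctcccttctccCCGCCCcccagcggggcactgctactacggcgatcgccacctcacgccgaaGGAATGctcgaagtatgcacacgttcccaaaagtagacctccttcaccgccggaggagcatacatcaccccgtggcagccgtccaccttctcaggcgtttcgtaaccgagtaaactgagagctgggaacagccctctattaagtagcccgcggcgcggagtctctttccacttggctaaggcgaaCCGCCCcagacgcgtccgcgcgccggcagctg
FBN1, chr15:48644921-48645220, minus strand: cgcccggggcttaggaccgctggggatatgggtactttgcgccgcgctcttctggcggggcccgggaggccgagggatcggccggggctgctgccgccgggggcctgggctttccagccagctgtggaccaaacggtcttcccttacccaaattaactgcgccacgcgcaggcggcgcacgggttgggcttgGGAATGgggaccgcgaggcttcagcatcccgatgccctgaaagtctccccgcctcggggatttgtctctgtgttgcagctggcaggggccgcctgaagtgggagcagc
GPC6, chr13:93226557-93226856, plus strand: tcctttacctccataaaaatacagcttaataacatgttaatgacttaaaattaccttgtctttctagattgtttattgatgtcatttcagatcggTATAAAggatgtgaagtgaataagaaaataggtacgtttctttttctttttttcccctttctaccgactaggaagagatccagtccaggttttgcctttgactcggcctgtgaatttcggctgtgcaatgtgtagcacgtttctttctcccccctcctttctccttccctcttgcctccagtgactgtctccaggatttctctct
COL12A1 held 2 SP1 motifs and 1 TEAD motif, FBN1 1 TEAD motif, and GPC6 1 TATAAA match, at position -155 from the RefSeq start. GC content was 63.3%, 68.3% and 40.0%, against a median of 58.3% over all promoters. A TEAD motif was found in 14.05% of 27305 RefSeq promoters and a TATA box in 11.95%. Among the 39 matrix gene promoters with an entry, 5 held a TEAD motif (12.82%) and 6 a TATA box (15.38%). Of the 13 entries for genes that passed, 3 held a TEAD motif and 1 a TATA box.

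With shRNA 162 the count of 12 was 6 without either control clone, 7 without shRNA 162 clone 1 and 5 without shRNA 162 clone 2. FN1, FBLN1, SRGN and LOX passed in each of these fits and under every other alternative that gave them a value (the fit of brighter rows only leaves FBLN1 out), with adjusted p values of at most 0.026, 0.039, 0.048 and 0.047. The others lost the call when at least 1 array was left out: COL8A1 without control clone 1 or shRNA 162 clone 2, GPC6 likewise, SDC1 without control clone 2 or shRNA 162 clone 2, LAMA4 without control clone 2 or shRNA 162 clone 1, and COL12A1, FBN1, LAMA5 and GPC1 without any of the 4 arrays compared. Over all alternatives their adjusted p values reached 0.11, 0.071, 0.062, 0.062, 0.18, 0.074, 0.19 and 0.12. With shRNA 159, COL12A1 passed whichever array was left out but not with all rows of the table in the fit (limma adjusted p = 0.055), FBN1 lost the call without either control clone (adjusted p up to 0.085 over all alternatives), and GPC6 without either control clone or shRNA 159 clone 2 (up to 0.18). None of the 4 calls with shRNA 159 held in every alternative. With either hairpin, leaving out an array of the groups compared also left fewer of all tested rows passing. Whether matrix genes lost calls more or less often than other rows was not tested.

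The direct comparison of shRNA 159 with shRNA 162 asks whether hairpins against the same target gave the same matrix profile. Of 52 genes 9 were higher with shRNA 159 (17.3%) and 2 lower (3.85%), where 8.65% of all rows passed, 4.02% higher and 4.64% lower. FBLN1 was higher by 0.99 (SE 0.11, 1.98-fold, limma adjusted p = 0.0015), FN1 by 0.92 (SE 0.08, 1.89-fold, limma adjusted p = 0.00081), LOX by 0.90 (SE 0.12, 1.87-fold, limma adjusted p = 0.0034) and SDC1 by 0.62 (SE 0.07, 1.53-fold, limma adjusted p = 0.0026). These 4 passed in every alternative that gave them a value; the fit of brighter rows only has none for FBLN1. LAMA5 was higher by 0.51, LAMA4 by 0.47, FBLN5, fibulin-5, by 0.39 and SRGN by 0.38 (limma adjusted p = 0.0062, 0.017, 0.022 and 0.017). HSPG2, the basement membrane proteoglycan perlecan, was higher by 0.34 (limma adjusted p = 0.041). FBLN5 read 8.03 and 7.95 with shRNA 159 and 7.63 and 7.56 with shRNA 162, on either side of its control signals of 7.76 and 7.86. HSPG2 read 8.47 and 8.46 with shRNA 159 and 8.08 and 8.17 with shRNA 162.

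THBS1 and COL12A1 were the 2 genes lower with shRNA 159 than with shRNA 162, with differences of -0.49 (SE 0.08, limma adjusted p = 0.0089) and -0.41 (SE 0.09, limma adjusted p = 0.028). FBN1 differed between the hairpins by -0.07 (SE 0.08), GPC6 by 0.11 (SE 0.12) and COL8A1 by 0.18 (SE 0.12), and none of these passed. The target itself was higher with shRNA 159 than with shRNA 162, TAX1BP3 by 0.47 (limma adjusted p = 0.013, not passing without shRNA 162 clone 1, and up to 0.1 over all alternatives). The part that this unequal knockdown has in the differences was not tested. Of the fibroblast markers 1 of 7 passed between the hairpins. PDGFRB, a growth factor receptor of fibroblasts and pericytes, read 7.48 and 7.57 with shRNA 159 and 7.08 and 7.16 with shRNA 162, beside 7.17 and 7.17 in control. It was higher with shRNA 159 than with shRNA 162 by 0.41 (SE 0.08, limma adjusted p = 0.018), and its difference of 0.35 from control with shRNA 159 did not pass (limma adjusted p = 0.061). EPCAM was higher by 0.79 (limma adjusted p = 0.0012), and limma called 0 endothelial, 0 leukocyte and 0 basal and mesenchymal markers (0, 0 and 1 at an unadjusted p under 0.05). Their part in the differences was not tested either. In this comparison fewer of all tested rows passed whichever array was left out. The count of 11 was 9 without either control clone, 4 without shRNA 162 clone 1, 5 without shRNA 162 clone 2 and 8 without either shRNA 159 clone. COL12A1 lost its call in this comparison without any array but shRNA 159 clone 1 (adjusted p up to 0.13), and FBLN5, LAMA4, LAMA5, SRGN and THBS1 each lost theirs without at least 1 of the 4 hairpin clones (up to 0.14, 0.12, 0.05, 0.11 and 0.064). HSPG2 lost its call whichever array was left out, with an adjusted p up to 0.22 over all alternatives.

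**Figure D3:**
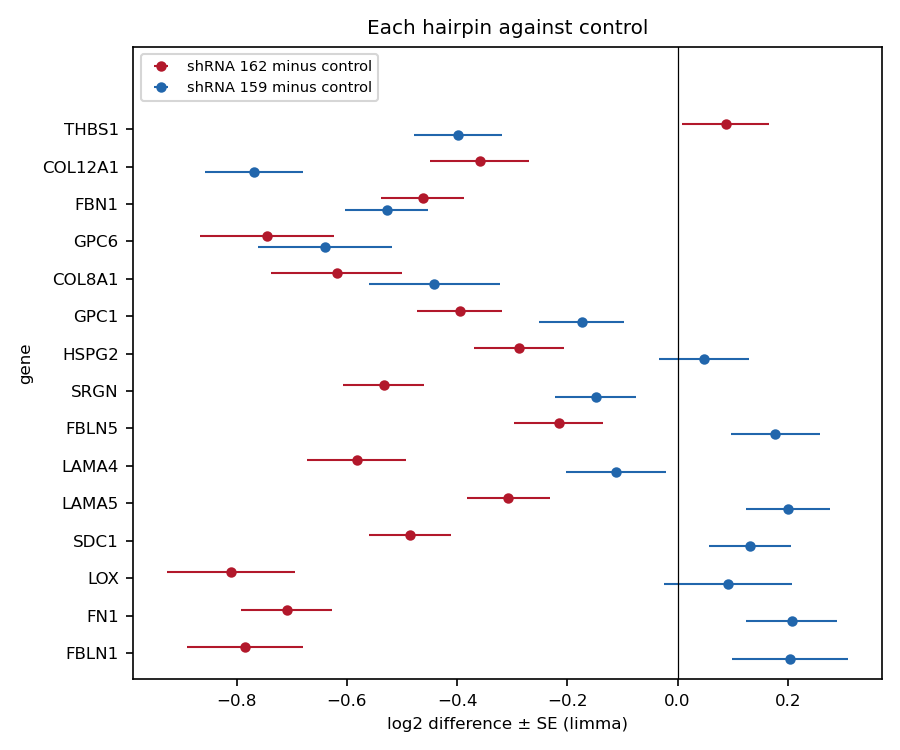
Log2 difference from control (x axis, points with SE from the limma fit) for shRNA 162 and shRNA 159 in the 15 matrix genes that passed in at least 1 comparison, ordered by the difference between the hairpins with THBS1 at the top and FBLN1 at the bottom. FN1, FBLN1, LOX and SDC1 are below 0 with shRNA 162 and slightly above 0 with shRNA 159, and FBN1 and GPC6 lie close together.

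The promoters of FN1, FBLN1 and LOX are shown because their transcripts differed most between the hairpins, with the same window and capitals.
FN1, chr2:215436019-215436318, minus strand: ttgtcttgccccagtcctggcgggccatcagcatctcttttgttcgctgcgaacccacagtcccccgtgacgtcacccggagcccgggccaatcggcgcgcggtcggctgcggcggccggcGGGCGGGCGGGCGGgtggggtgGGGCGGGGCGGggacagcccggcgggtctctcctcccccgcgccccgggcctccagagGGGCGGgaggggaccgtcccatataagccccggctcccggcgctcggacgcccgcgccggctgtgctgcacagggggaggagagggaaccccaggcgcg
FBLN1, chr22:45502633-45502932, plus strand: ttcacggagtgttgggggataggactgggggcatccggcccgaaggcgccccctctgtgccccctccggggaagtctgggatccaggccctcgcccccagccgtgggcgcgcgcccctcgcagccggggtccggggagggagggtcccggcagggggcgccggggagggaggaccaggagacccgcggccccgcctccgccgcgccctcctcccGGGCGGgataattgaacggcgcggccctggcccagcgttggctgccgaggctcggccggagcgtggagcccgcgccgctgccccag
LOX, chr5:122078210-122078509, minus strand: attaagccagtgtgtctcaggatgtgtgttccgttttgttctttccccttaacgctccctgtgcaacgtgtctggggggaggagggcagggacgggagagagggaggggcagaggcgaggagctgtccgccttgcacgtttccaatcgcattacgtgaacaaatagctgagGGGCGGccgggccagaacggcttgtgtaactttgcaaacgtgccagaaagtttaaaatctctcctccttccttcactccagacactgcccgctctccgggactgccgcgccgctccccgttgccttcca
FN1 held 6 SP1 motifs, and FBLN1 and LOX 1 each. An SP1 motif was found in 28 of the 39 matrix gene promoters with an entry (71.79%), in 10 of the 13 entries for genes that passed, and in 44.59% of all promoters. AP-1 motifs were found in 0 of those 13 and in 7.76% of all promoters. A match is a run of letters, not a bound site.

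To see whether a gene moved together with its place on the chromosome, the 10 nearest measured genes were read for each gene that passed, 5 on either side in the gene order of RefSeq. The 15 matrix genes lie on 11 chromosomes. The median difference of their neighbours lay between -0.16 and 0.08 with shRNA 162 and between -0.11 and 0.18 with shRNA 159. For LOX the neighbours' medians were 0.01 with shRNA 162 and -0.03 with shRNA 159, beside differences of -0.81 and 0.09 for LOX. For FN1 they were 0.08 and -0.05, beside -0.71 and 0.21. For SDC1 on chromosome 2, 4 of its 10 neighbours rose with shRNA 159, with a median of 0.18, and SDC1 itself differed by 0.13. With shRNA 162, where SDC1 fell, its neighbours' median was -0.02. For shRNA 159 minus shRNA 162, 3 of the neighbours of SDC1 were higher, with a median of 0.20 beside 0.62 for SDC1 itself. In the same comparison 2 of the neighbours of COL12A1 on chromosome 6 were lower, with a median of -0.18 beside -0.41 for COL12A1. For the other 13 matrix genes the neighbours' medians between the hairpins lay between -0.14 and 0.08, with at most 1 neighbour passing in either direction.

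Collagen chains are modified and folded in the endoplasmic reticulum and trimmed outside the cell before lysyl oxidases join them. Of 27 measured genes of this processing, 2 rose and 2 fell with shRNA 162 (9.52% of all rows passed, 5.88% higher and 3.64% lower). With shRNA 159, 1 rose and 1 fell (2.53% of all rows passed, 1.69% higher and 0.839% lower). The median difference was -0.01 with shRNA 162 and -0.004 with shRNA 159. PLOD2, the lysyl hydroxylase that acts on collagen telopeptides, read 10.36 and 10.39 with shRNA 162, 10.32 and 10.31 with shRNA 159 and 11.002 and 11.022 in control. It fell by 0.64 with shRNA 162 (SE 0.07, limma adjusted p = 0.0018) and by 0.70 with shRNA 159 (SE 0.07, limma adjusted p = 0.0022), and passed under every alternative. Its relatives PLOD1 and PLOD3 differed by -0.14 and -0.01 with shRNA 162 and by -0.20 and 0.002 with shRNA 159, and did not pass. Of the collagen prolyl 4-hydroxylase subunits P4HA1, P4HA2, P4HA3 and P4HB none passed, and SPARC, a collagen-binding protein, differed by 0.52 with shRNA 159 without passing (limma adjusted p = 0.082).

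P3H2, a prolyl 3-hydroxylase that acts on collagen IV, moved in opposite directions. It read 8.81 and 8.90 with shRNA 162, 9.90 and 9.76 with shRNA 159 and 9.32 and 9.27 in control. P3H2 fell by 0.44 with shRNA 162 (SE 0.08, limma adjusted p = 0.015) and rose by 0.53 with shRNA 159 (SE 0.08, limma adjusted p = 0.014), and the hairpins differed by 0.98 (limma adjusted p = 0.00064). The fall was lost without any 1 of the 4 arrays compared (adjusted p up to 0.1 over all alternatives) and the rise without either control clone or shRNA 159 clone 1 (up to 0.14), while the difference between hairpins passed in every alternative. Of its neighbours 3 fell with shRNA 162, and 0 passed with shRNA 159. For shRNA 159 minus shRNA 162, 3 of its neighbours were higher, with a median of 0.07 over all 10 beside 0.98 for P3H2. That median hides a split. BCL6, LPP and IL1RAP differed by 0.71, 1.07 and 0.47, and the other neighbours lay between -0.11 and 0.14. With shRNA 162 BCL6, LPP and IL1RAP differed from control by -0.70, -0.82 and -0.59.

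COLGALT1, which adds galactose to hydroxylysine, and LOXL2, a lysyl oxidase that also acts on collagen IV, rose with shRNA 162. COLGALT1 read 10.92 and 10.81 with shRNA 162, 10.49 and 10.38 with shRNA 159 and 10.24 and 10.24 in control, and rose by 0.63 with shRNA 162 (SE 0.08, limma adjusted p = 0.0033). LOXL2 read 11.22 and 11.12 with shRNA 162, 10.52 and 10.46 with shRNA 159 and 10.43 and 10.41 in control, and rose by 0.75 with shRNA 162 (SE 0.08, limma adjusted p = 0.0012). LOXL2 rose together with its place on chromosome 8: 7 of its 10 neighbours rose with shRNA 162, with a median of 0.78, and with shRNA 159 the neighbours' median was 0.002. COLGALT1 on chromosome 19 had neighbours with a median of -0.03 with shRNA 162. SERPINH1, a collagen chaperone, was higher with shRNA 159 than with shRNA 162 by 0.38 (limma adjusted p = 0.029), a call lost whichever array was left out (adjusted p up to 0.19). In that comparison 2 of 27 processing genes were higher and 2 lower, where 8.65% of all rows passed, 4.02% higher and 4.64% lower.

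**Figure D4:**
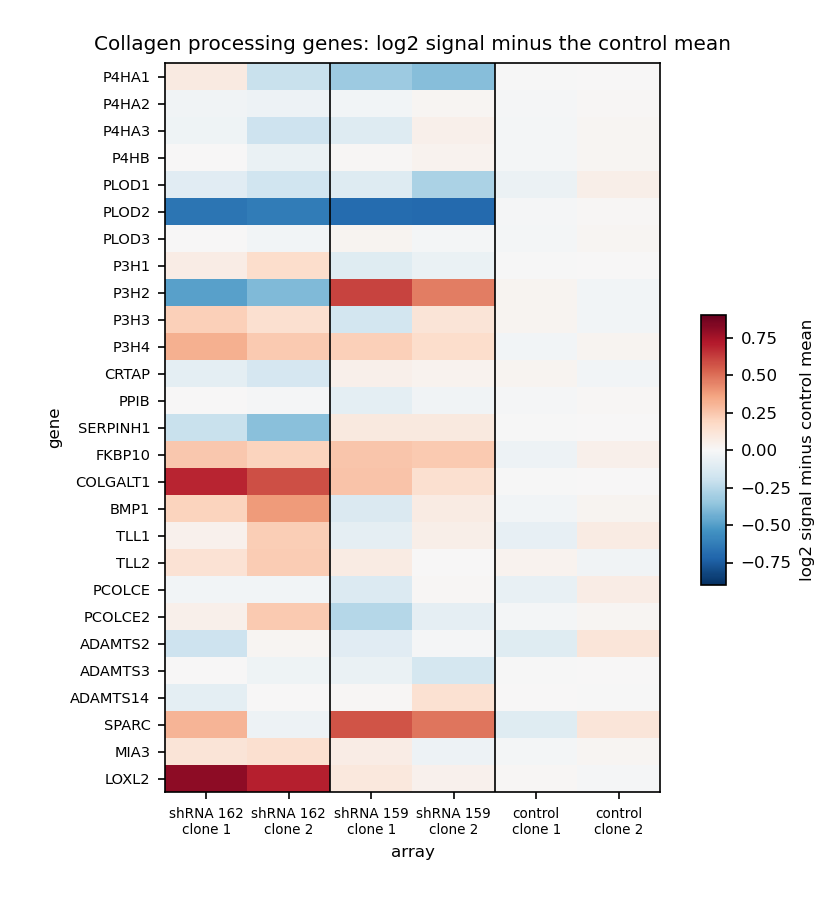
Log2 signal of the 27 collagen processing genes (rows) on each array (columns) as the difference from the mean of the control clones (colour scale in log2 units). PLOD2 is low in all 4 TIP-1 shRNA columns, COLGALT1 and LOXL2 are high with shRNA 162, and P3H2 is low with shRNA 162 and high with shRNA 159.

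**Figure D5:**
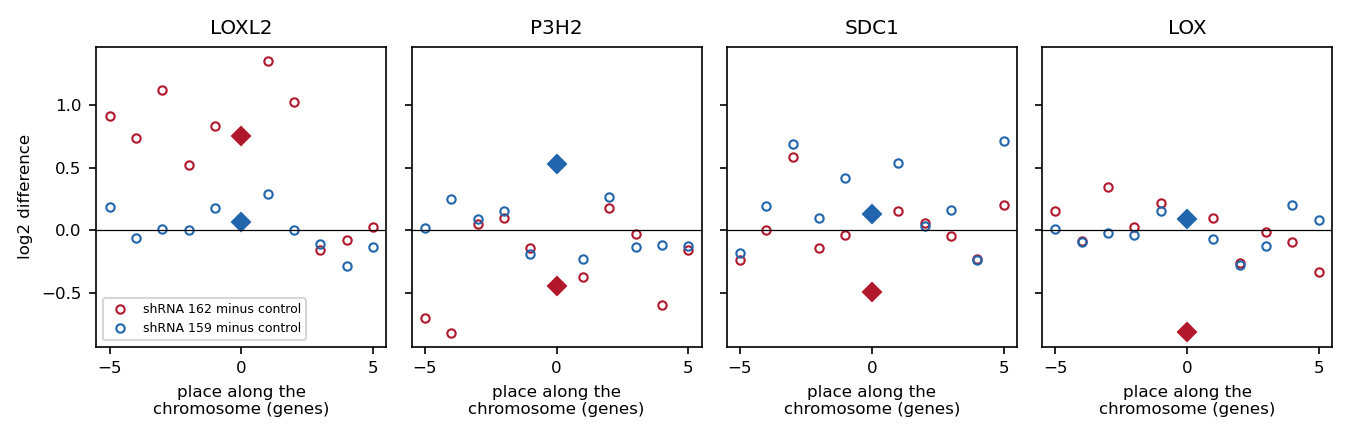
Log2 difference from control (y axis) with shRNA 162 and shRNA 159 for LOXL2, P3H2, SDC1 and LOX (filled diamonds) and for the 10 nearest measured genes (open circles), by place in gene order (x axis, 0 is the gene itself). LOXL2 lies among neighbours that rose with shRNA 162, while LOX lies apart from its neighbours with shRNA 162.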

How the data were processed

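The table holds 1 value per probe set and array. Per the series' design text the authors processed the arrays with the Affymetrix Exon Array Computational Tool; for background correction and normalization, settings were not given in the labels read. The deposited values were taken as log2 signals from their range. Of 33297 rows, 19460 carried 1 gene symbol in the platform annotation, 1754 several and 12083 none; the 21214 rows with a symbol were tested, and a gene was read from rows with 1 symbol, the row with the highest mean where there were several.

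The 3 groups, taken from the labels, were fitted in 1 model with limma 3.58.1 in R 4.3.3 (3 residual degrees of freedom), two-sided, with p-values adjusted by Benjamini-Hochberg over all tested rows. The p-values set a difference against the spread between clones, moderated over all tested rows, and 2 arrays a group limit the precision. For TIP-1 shRNA minus control they leave out the spread between the hairpins. On simulated data for shRNA 162 minus control over 21214 rows, 37% of genes changed by 0.5 and 86% of genes changed by 1 on the log2 scale were recovered. The simulation held normal noise, upward changes only and far fewer changed rows than passed in the data. Its rates may therefore differ from those of the real comparison. Genes that passed in any of 4 comparisons, the gene with the highest mean in each class and members completing a small family were named. The genes, lists and alternatives were chosen with earlier results of these data known. Alternatives were other sets of rows, quantile normalization, median centring, a variance trend, a replicate block, only the arrays compared, other groupings of the hairpins, and each array left out. Promoters are RefSeq entries of GRCh38.p14.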

Additional observations from a re-analysis of the deposited data

Results flagged for a closer look

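The direct test of shRNA 159 minus shRNA 162 passed for 11 matrix genes and 4 collagen processing genes, so that the hairpins' differences from control were not alike for them; both hairpins are set against the same control clones. The difference was 0.92 for FN1, 0.99 for FBLN1, 0.39 for FBLN5 and 0.90 for LOX on the log2 scale. It was 0.47 for LAMA4, 0.51 for LAMA5 and 0.34 for HSPG2. It was 0.62 for SDC1 and 0.38 for SRGN. COL12A1 with -0.41 and THBS1 with -0.49 were lower with shRNA 159. Among the processing genes the difference was 0.98 for P3H2, 0.38 for SERPINH1, -0.43 for COLGALT1 and -0.68 for LOXL2.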

How the results depend on the processing

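With 2 clones a group, the counts of matrix genes that passed depended on single arrays, and so did the counts over all tested rows. Leaving out 1 array at a time gave 0 to 6 for TIP-1 shRNA minus control, 5 to 12 for shRNA 162 minus control, 1 to 3 for shRNA 159 minus control and 4 to 9 for shRNA 159 minus shRNA 162, and for the collagen processing genes 1 to 3, 3 to 4, 1 to 3 and 2 to 3. With all rows of the table in the fit the matrix counts were 1, 7, 0 (limma, 7 at an unadjusted p under 0.05) and 5 in the same order of comparisons, where 226, 691, 111 and 593 rows passed in all, against 980, 2019, 537 and 1836 in the reported fit; the processing counts were 1 for TIP-1 shRNA, 1 for shRNA 159 and 2 between the hairpins. With only brighter rows the processing counts were 5 for TIP-1 shRNA, 7 for shRNA 162 and 4 for shRNA 159, with 1992, 3090 and 946 rows passing in all. With a variance trend the matrix count was 10 for TIP-1 shRNA, and the processing counts were 7 for shRNA 162 and 5 for shRNA 159, with 2265, 3482, 1137 and 3022 rows passing in the 4 comparisons. With the 4 TIP-1 shRNA arrays as 1 group the counts were 1 matrix gene and 1 processing gene, and with the hairpin as a random block 0 (limma, 6 at an unadjusted p under 0.05) and 1, with 71 and 57 rows passing in all. Adding or dropping rows changes how many are adjusted over and leaving out arrays how many clones are compared; beyond that the cause was not tested. Quantile normalization and median centring kept every count within 1.5 times. Same-numbered clones correlated in their deviations from the group means by -0.05 for shRNA 162 and control, 0.26 for shRNA 159 and control and -0.03 for shRNA 159 and shRNA 162, so the numbers were not taken as pairs. With the replicate block the matrix counts were 6, 12, 5 and 11; the gene gained was COL8A1 with shRNA 159 (adjusted p = 0.022, against 0.12 without the block), and no other call changed among the matrix and processing genes that passed in any comparison of the reported fit. With the block 5 processing genes passed between the hairpins, against 4 without it. Of 1093 values of single genes recomputed under an alternative, 145 lost and 17 gained a call and 0 turned sign where either was called.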
